A study of Drosophila melanogaster with 32 samples.

Results

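Cytochrome P450 genes encode heme-containing monooxygenases that insert an oxygen atom into small lipophilic molecules. In insects they make and break down ecdysteroid hormones, make the cuticular hydrocarbons, and oxidise plant toxins and insecticides, largely in midgut, Malpighian tubule and fat body. By sequence they fall into the CYP2, CYP3, CYP4 and mitochondrial clans, and many lie in tandem clusters.

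The genes were all those of the array whose symbol starts with Cyp and a digit and that have a probe set annotated to them alone. There were 83 such genes out of 11982 that a probe set names alone, and where a gene had more than 1, the probe set brightest on average on the log2 scale was used. Of these, 81 were P450 genes, and the other 2, Cyp1 and Cyp40, are cyclophilins and were left out of the counts. The annotation lists 85 P450 genes with a Cyp symbol, 2 of them pseudogenes. The 4 with no probe set of their own were Cyp12d1-p, Cyp9f3, Cyp6a15Psi and Cyp6t2Psi. By clan, 4 of the 81 belonged to CYP2, 37 to CYP3, 32 to CYP4 and 8 to the mitochondrial clan.

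Expression was measured in whole bodies of 42-day-old flies of 7 mutant lines and their control. The study chose the mutants because they lived longer in at least 1 sex, not always in both. The mutant lines, pyd, mub, crol, CG10990, CG9238, BG00817 and esg, each carried 1 P{GT1}-element in homozygous state, and the site of the BG00817 insertion was not known by sequence. The control was the co-isogenic Canton S F line, with no such element. All lines shared the w1118 background, and the flies of both sexes were collected as virgins. Each line and sex had 2 arrays, 32 in all, each from its own pool of flies. Whether the 2 pools were raised as separate cultures is not stated, and p-values cover only the spread between the pools. Each mutant line is 1 insertion allele, and all 7 were compared with the same 4 control arrays.

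Values are MAS5 signals, a brightness in arbitrary units scaled to the same trimmed mean on each array. A gene was tested if both arrays of at least 1 line and sex reached a signal of 50, and signals below 50 are given no order. This kept 72 of the 81 P450 genes and 12518 probe sets of the whole array. Median signals were 115.5 to 141.1 on male arrays and 48.2 to 71.0 on female arrays, and the highest female median came from a mub array. Within the lines, the genes they are named for were lower than in the control in mub (log2 change -1.15 ± 0.12, SE, limma adjusted p = 0.0122), CG10990 (Pdcd4, -1.66 ± 0.18, adjusted p = 0.0222) and CG9238 (Gbs-70E, -1.0 ± 0.07, adjusted p = 0.00437). The change was -0.64 ± 0.17 for pyd (adjusted p = 0.147) and 0.25 ± 0.14 for esg (adjusted p = 0.33), which did not pass the test, and crol had no probe set of its own. The log2 ratio of the 3′ to the 5′ probe sets of 3 housekeeping genes, a sign of RNA quality, was 0.858 to 1.003 on control arrays. It was 0.748 to 1.674 on mutant arrays, and all arrays of BG00817, esg and CG9238 were above the control. Its part in the line differences was not tested.

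The P450 genes with the highest mean log2 signal were Cyp4g1, Cyp6d5, Cyp6g1, Cyp4e2 and Cyp9f2. Cyp4g1, which makes cuticular hydrocarbons in oenocytes, was at 13278 to 27502 on all 32 arrays. Cyp6g1, known for resistance to DDT and other insecticides, was at 8803 to 13787 in males and 2194 to 4636 in females. The lowest were Cyp303a1, which acts in sensory bristles, Cyp313a2 and Cyp313a5, under 50 on every array. Signals were also under 50 on all 32 arrays for Cyp316a1, Cyp4p2 and Cyp6a17, the last known for its role in temperature preference. The other genes not tested were Cyp12d1-d, Cyp308a1 and Cyp313a3, with a highest signal of 75.2, 54.3 and 65.0.

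Of the 72 P450 genes tested, 21 (29.2%) differed among the 8 lines, against 10.1% of all probe sets (limma F-test over the 32 arrays, averaged over the sexes, adjusted p of at most 0.001). At a stricter threshold of 0.0001, 12 differed, against 5.17% of all probe sets. By clan these were 10 of 35 tested in CYP3, 7 of 27 in CYP4, 3 of 7 in the mitochondrial clan and 1 of 3 in CYP2. Whole flies were measured, so fewer cells of a type and less RNA per cell cannot be told apart. The 10 genes with the smallest p follow, with the limma adjusted p of the F-test.

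Cyp4d8 stood low in pyd and CG9238 (adjusted p = 4.2e-08). Male signals were 333 and 224 in pyd and 260 and 244 in CG9238, against 691 and 706 in the control. Female signals were 160 and 140 in pyd and 101 and 145 in CG9238, against 286 and 264 in the control. No array of these lines overlapped the control of the same sex, while the other 5 lines spanned 562 to 874 in males and 319 to 505 in females. Against the control the change was -1.12 ± 0.15 in pyd (SE, log2 scale, limma adjusted p = 0.03) and -1.33 ± 0.13 in CG9238 (adjusted p = 0.0088).

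Cyp6d2, linked to tolerance of the plant alkaloid camptothecin, stood high in pyd alone (adjusted p = 6.9e-06). In pyd it reached 433 and 473 in males and 187 and 208 in females, against 61.7 and 51.1 in control males and 25.6 and 13.6 in control females. All 4 pyd arrays were above the arrays of the other 6 lines, which spanned 36.1 to 105.0 in males and 7.54 to 52.9 in females. In males the change was 3.01 ± 0.25 (adjusted p = 8.2e-05), and over both sexes it was at least 5.64-fold, with control female signals raised to 50 (adjusted p = 0.00351).

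Cyp12a5, of the mitochondrial clan, stood high in BG00817 (adjusted p = 1.5e-06). BG00817 males had signals of 1092 and 1087 and BG00817 females 577 and 656, against 401 and 552 in control males and 192 and 189 in control females. The other 6 lines spanned 363 to 752 in males and 208 to 320 in females, below BG00817 in both sexes. The change in BG00817 was 1.45 ± 0.12 (adjusted p = 0.00456). Its neighbour Cyp12a4, which confers resistance to the insecticide lufenuron when overexpressed, changed by 0.46 ± 0.06 in the same line (adjusted p = 0.0154), with 5184 and 4950 in BG00817 males against 3854 and 3872 in control males.

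Cyp6a23 followed the same line (adjusted p = 4.4e-05). BG00817 males had 7892 and 6795 and BG00817 females 5114 and 5122, against 3227 and 3526 in control males and 1639 and 1715 in control females. Both sexes of BG00817 lay above all arrays of the other lines of that sex. The change was 1.36 ± 0.08 in BG00817 (adjusted p = 0.00173) and 0.65 ± 0.10 in mub (adjusted p = 0.0249). In mub the signals were 4422 and 3504 in males and 3372 and 3706 in females.

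Cyp6a18 moved in opposite directions in different lines (adjusted p = 1.3e-06). Females had 502 and 453 in mub, 462 and 420 in esg and 148 and 112 in CG9238, against 239 and 217 in the control. Males had 642 and 683 in mub, 673 and 575 in esg and 374 and 407 in CG9238, against 646 and 618 in the control. Female arrays of mub and esg lay above the control and those of CG9238 below it, while in males CG9238 lay below it and mub and esg overlapped it. The change was 0.57 ± 0.08 in mub (adjusted p = 0.0196), 0.47 ± 0.08 in esg (adjusted p = 0.042) and -0.76 ± 0.11 in CG9238 (adjusted p = 0.0259). The other 4 lines spanned 410 to 784 in males and 186 to 226 in females.

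Cyp6d4 was low in the control (adjusted p = 3.4e-05). In females it was at 416 and 521 in BG00817, 206 and 229 in CG9238 and 383 to 557 in the other 5 lines, against 191 and 198 in the control. In males it was at 581 and 545 in BG00817, 418 and 442 in CG9238 and 257 to 445 in the other 5 lines, against 300 and 293 in the control. All female arrays of the mutant lines were above both control female arrays, and in males 1 pyd array fell below the control. The change passed the test in mub (0.85 ± 0.06, adjusted p = 0.00522), crol (0.81 ± 0.08, adjusted p = 0.013), BG00817 (1.09 ± 0.09, adjusted p = 0.00469) and esg (0.61 ± 0.08, adjusted p = 0.0267). It was 0.73 in pyd (adjusted p = 0.0864), 0.74 in CG10990 (adjusted p = 0.0575) and 0.35 in CG9238 (adjusted p = 0.0512). These comparisons share the control arrays, so a low control enters all of them.

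Cyp4d1 differed chiefly in females (adjusted p = 2.7e-05). Female signals were 586 and 487 in pyd and 2391 and 2003 in mub, against 1159 and 1026 in the control, with 1158 to 2052 in the other 5 lines. Male signals were 648 and 522 in pyd and 848 and 759 in mub, against 810 and 645 in the control, with 530 to 836 in the other 5 lines. In females pyd lay below and mub above the control, and in males both overlapped it. Within females the change was -1.03 ± 0.20 in pyd (adjusted p = 0.0231) and 1.00 ± 0.20 in mub (adjusted p = 0.00956).

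Cyp6d5 (adjusted p = 1.8e-05) stood apart in pyd, mub and CG9238. A line by sex difference was not called for it (limma F-test, adjusted p = 0.00239). Males of pyd had 13271 and 12388, against 8695 and 9017 in control males, a change of 0.53 ± 0.10 (adjusted p = 0.0087). Females had 8772 and 8752 in mub and 3981 and 3842 in CG9238, against 6132 and 5743 in control females, changes of 0.56 ± 0.11 (adjusted p = 0.00981) and -0.60 ± 0.11 (adjusted p = 0.0297). Males of mub, at 9669 and 9819, also lay above control males, and Cyp6d5 was called higher in mub over both sexes. The 4 lines crol, CG10990, BG00817 and esg spanned 8264 to 10903 in males and 5607 to 6830 in females.

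Cyp6t1 (adjusted p = 5.3e-05) was highest in males in CG9238. The signals were 531 and 610 in CG9238 males and 442 and 341 in BG00817 males, against 264 and 256 in control males. In females they were 631 and 730 in CG9238 and 672 and 878 in BG00817, against 542 and 517 in the control. The change over both sexes was 0.75 ± 0.08 in CG9238 (adjusted p = 0.0128) and 0.56 in BG00817 (adjusted p = 0.0591). The other 5 lines spanned 303.1 to 434 in males and 351 to 551 in females.

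**Figure D1:**
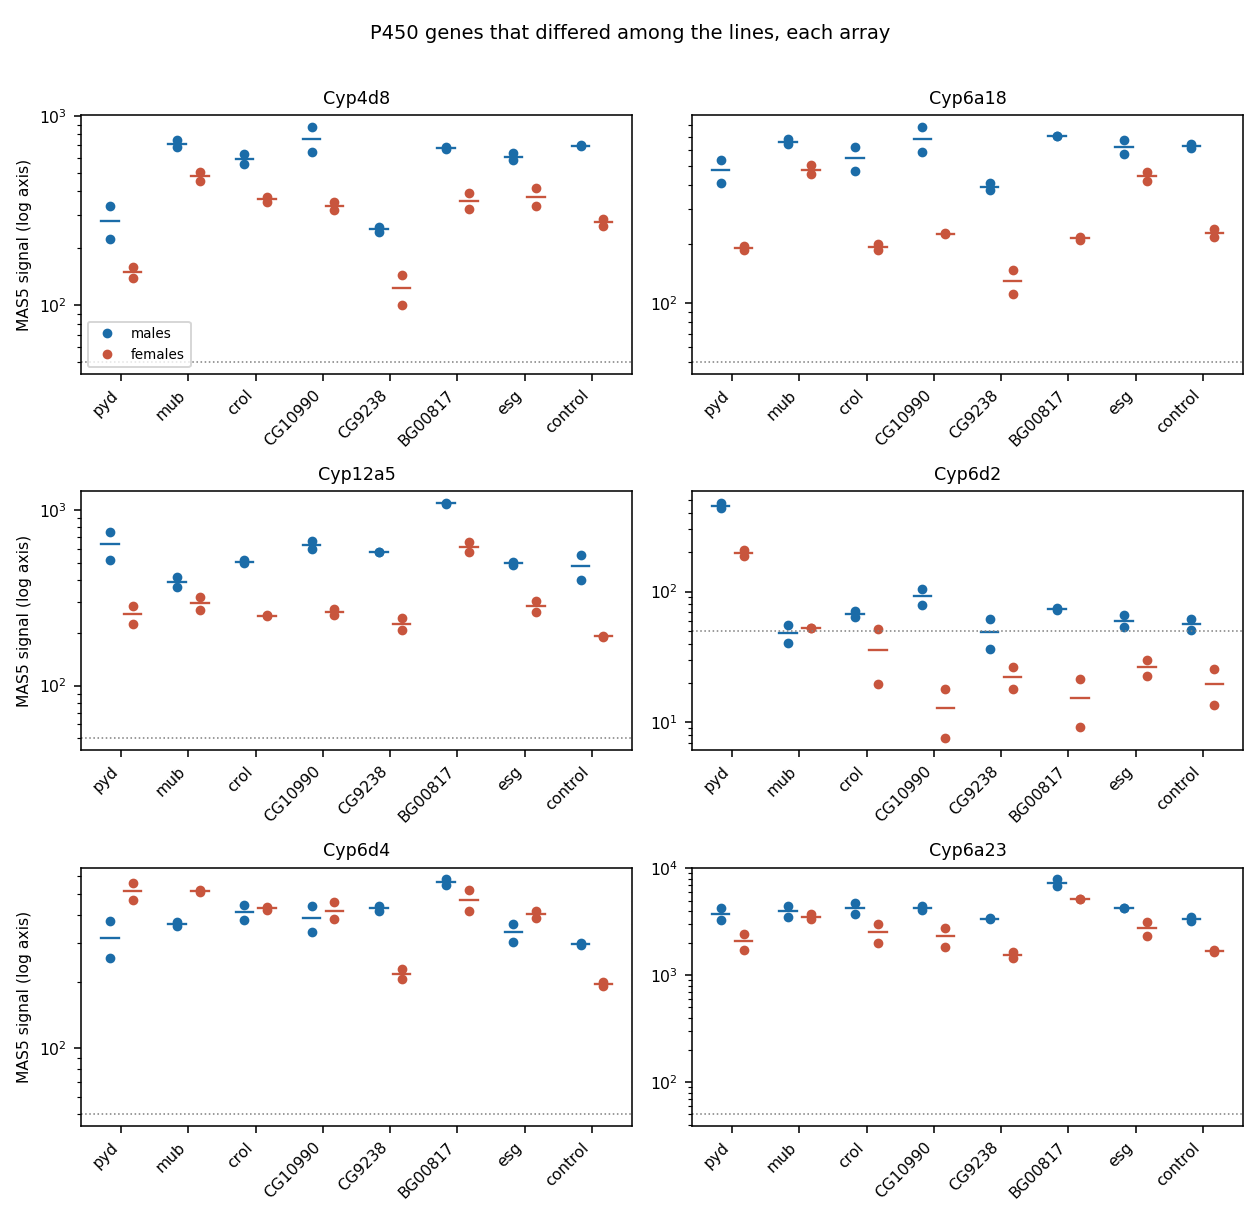
Signal on a log axis of Cyp4d8, Cyp6a18, Cyp12a5, Cyp6d2, Cyp6d4 and Cyp6a23 on each array (points) by line, males left of females, with the mean of the 2 arrays as a bar and a dotted line at a signal of 50. Cyp6d2 is at 187 to 473 in pyd and at most 105.0 elsewhere, and Cyp12a5 and Cyp6a23 are highest in BG00817 in both sexes.

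The other 11 genes past the F-test, by adjusted p, were Cyp4d20 (5.7e-05), Cyp305a1 (8.6e-05), Cyp6w1 (1.1e-04), Cyp6a8 (2.9e-04), Cyp9b2 (3.7e-04), Cyp12a4 (3.9e-04), Cyp4d21 (4.6e-04), Cyp4d2 (4.8e-04), Cyp6g1 (5.8e-04), Cyp12b2 (6.5e-04) and Cyp4ad1 (6.7e-04). Cyp6w1, linked to DDT resistance, was at 6077 and 6463 in CG9238 males and 2488 and 2531 in CG9238 females, against 3584 and 3620 in control males and 1350 and 1119 in control females. Every mutant male array lay above both control male arrays. Among mutant female arrays only esg replicate 2, at 1341, was not above both control female arrays. As for Cyp6d4, a low control enters all of these comparisons. Cyp4d20 was low in pyd, crol and CG9238 females. The signals were 157 and 167 in pyd, 235 and 151 in crol and 209 and 178 in CG9238, against 432 and 360 in the control. In females the change of Cyp4d20 was -1.29 ± 0.21 in pyd (limma adjusted p = 0.0118) and -1.07 ± 0.21 in crol (adjusted p = 0.0321), and it was also called in CG9238. Cyp4ad1 was at 345 and 298 in crol females and 345 and 326 in mub females, against 186 and 102 in control females, and the 2 control arrays were themselves far apart.

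**Figure D2:**
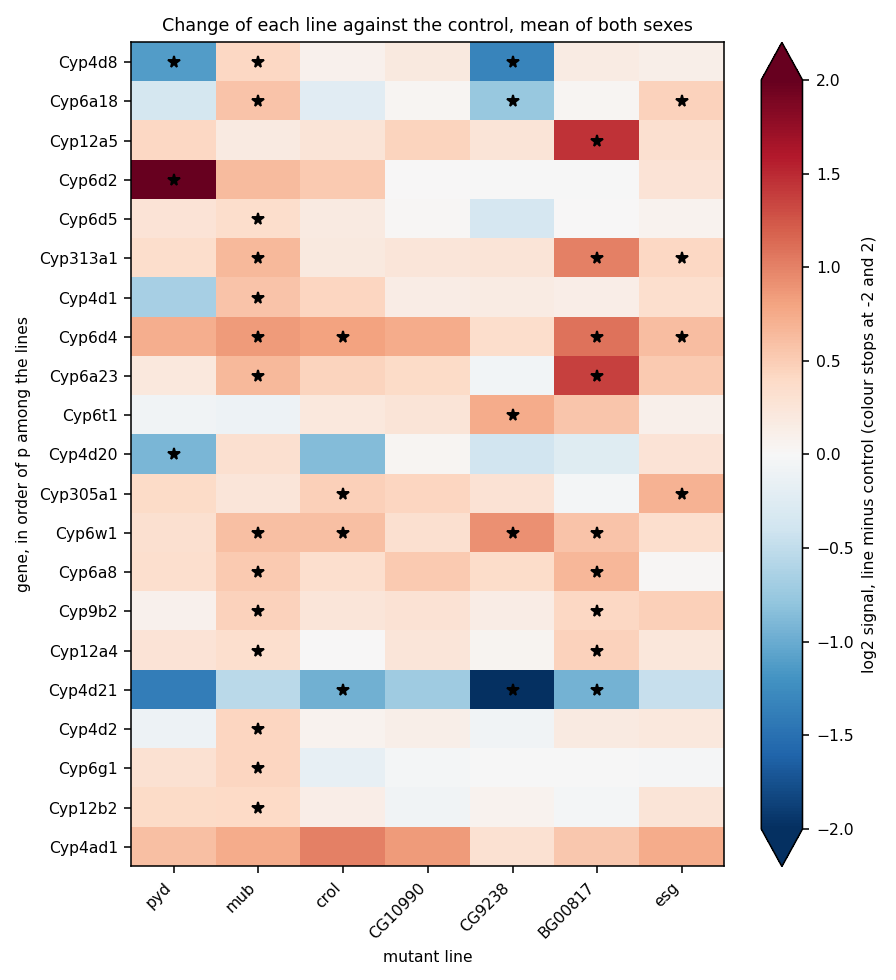
Change in log2 signal of each mutant line against the control, averaged over the sexes, for the 21 P450 genes that differed among the lines, in order of p; a star marks a change called by limma at 0.05. The colour scale stops at -2 and 2, which Cyp6d2 in pyd exceeds, and the most stars stand in mub and BG00817.

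Each line was then compared with the control on the 8 arrays of the pair (limma, averaged over the sexes, adjusted p of at most 0.05 over all probe sets). With 2 arrays a group many calls rested on single arrays. Of the 60 P450 changes called over the 7 lines, 7 passed the test whichever array of the 8 was left out. These were Cyp6d2 in pyd, Cyp6d4 in mub, and Cyp12a5, Cyp6a23, Cyp6d4, Cyp313a1 and Cyp311a1 in BG00817. For Cyp311a1 all 4 control arrays and both BG00817 female arrays were under 50, so its call compares signals that are mostly given no order.

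In mub, 21 of the 72 P450 genes were higher than in the control, against 6.83% of all probe sets (limma), and 0 were lower, against 5.88%, with 2 lower at an unadjusted p under 0.05 and 0 by the methods' analysis of variance. The median change of the P450 genes was 0.30, against -0.04 for all probe sets (log2). The 4 largest were Cyp6d4 (above), Cyp313a1 (0.65 ± 0.09, adjusted p = 0.0225), Cyp6a23 (above) and Cyp4p3 (0.60 ± 0.12, adjusted p = 0.0336), with Cyp6w1 next at 0.60 ± 0.09 (adjusted p = 0.0249). Cyp6g1 (0.43 ± 0.08, adjusted p = 0.0334), Cyp6a8 (0.52 ± 0.07, adjusted p = 0.0212) and Cyp12a4 (0.33 ± 0.08, adjusted p = 0.0494) were also among those called, whereas Cyp6a2, Cyp6d2 and Cyp28d1 were not. Split by sex, 31 P450 genes were called in mub females, 28 higher and 3 lower, against 24.1% of all probe sets, and 0 in mub males, against 1.29%. In mub males 6 genes were higher and 3 lower at an unadjusted p under 0.05 (limma), and the median change of the P450 genes was 0.07 in males, against 0.49 in females. The difference between the sexes was called for 0 P450 genes (limma, 32 at an unadjusted p under 0.05), against 0.136% of all probe sets, so no gene was shown to change differently in mub males and females. The female calls were led by Cyp6d4 (1.40 ± 0.14), Cyp4ad1 (1.29 ± 0.23), Cyp4p3 (1.23 ± 0.22) and Cyp313a1 (1.18 ± 0.13), and the lower ones were Cyp6a19 (-0.46 ± 0.13), Cyp6u1 (-0.43 ± 0.13) and Cyp6a22 (-0.36 ± 0.09), all with limma adjusted p of at most 0.05. The count of 21 fell to 1 without either control male array or either mub male array, to 7 without control female replicate 2 or mub female replicate 2, and to 11 without mub female replicate 1.

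The summed signals of midgut, fat body, eye and oenocyte markers were also higher in mub, and those of Malpighian tubule markers were not. The summed signal of 8 midgut genes was 91680 to 95790 in mub females, against 61000 to 70490 in control females, and 67620 to 68810 in mub males, against 56930 to 63480 in control males. None of the 8 was under 50 on both arrays of either group, and 3 of 8 were called higher. The summed signal of 8 fat body genes was 41900 to 45850 in mub females, against 25590 to 30030 in control females, and 47910 to 48230 in mub males, against 40420 to 44600 in control males. Of these, 2 were under 50 in each group, and 2 of the 6 tested were called higher. The summed signal of 6 tubule genes was 4489 to 4606 in mub females, against 4536 to 4653 in control females, and 6047 to 6276 in mub males, against 7261 to 7556 in control males. Of these none was under 50 on both arrays of a group, 1 was called higher (Drip) and 1 lower (Best2). The rise was not particular to midgut and fat body. The summed signal of 6 eye genes was 23790 to 24450 in mub females, against 16310 to 17390 in control females, with 4 of 6 called higher. That of 6 oenocyte genes, Cyp4g1 among them, was 38940 to 39350, against 30470 to 30550, with 2 of 6 called higher. Both sums were also higher in mub males than in control males. Of 9 muscle genes 1 was called higher and 1 lower. The part of these tissues in the P450 changes was not tested.

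In BG00817, 14 P450 genes were higher than in the control, against 4.07% of all probe sets, and 1 was lower, against 4.34%. The median change was 0.19, against -0.05 for all probe sets. Beside Cyp12a5, Cyp6a23 and Cyp6d4 (above), the largest rise was in Cyp313a1 (1.01 ± 0.09, adjusted p = 0.00531). Cyp12e1, also of the mitochondrial clan, rose by 0.92 ± 0.15 (adjusted p = 0.0251) and Cyp28a5 by 0.61 ± 0.08 (adjusted p = 0.0134). The lower gene was Cyp4d21 (adjusted p = 0.0244), described below. Within the sexes, 9 genes were called in females, all higher, against 3.95% of all probe sets, and 10 in males, 8 higher and 2 lower, against 5.6%. The male calls included Cyp6a2 (0.63 ± 0.11, adjusted p = 0.00763), a gene known to respond to foreign compounds, and Cyp49a1 among those lower (-0.94 ± 0.19, adjusted p = 0.0202). The 8 midgut genes summed to 67560 to 69460 in BG00817 males, against 56930 to 63480 in control males, and to 70630 to 77040 in BG00817 females, against 61000 to 70490 in control females, with 2 of 8 called higher and none under 50 on both arrays of a group. The 6 tubule genes summed lower, at 6269 to 6846 against 7261 to 7556 in males. In females they summed to 4089 to 4422, against 4536 to 4653, with 1 called higher (NaPi-T) and 1 lower (Best2). The 9 muscle genes also summed lower in both sexes. The 8 fat body genes summed higher in males and overlapped the control in females. Their part was not tested. Without 1 array the count of 15 became 5 for either control male array, 7 for BG00817 male replicate 1, 8 for BG00817 male replicate 2 and 10 for BG00817 female replicate 2.

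In esg, 9 P450 genes were higher, against 3.19% of all probe sets, and 0 were lower, against 2.66% (limma, also 0 at an unadjusted p under 0.05 and 0 by the methods' analysis of variance). The median change was 0.22, against -0.01. The largest rises given with both groups over 50 were Cyp305a1 (0.69 ± 0.09, adjusted p = 0.0247), Cyp6d4 (above) and Cyp309a1 (0.60 ± 0.09, adjusted p = 0.0323). Cyp305a1 had signals of 1313 and 1341 in esg males and 836 and 666 in esg females, against 925 and 942 in control males and 409 and 405 in control females. Cyp311a1 passed the test (adjusted p = 0.0299), but it was under 50 on all 4 control arrays and both esg female arrays. In esg females 5 genes were called, all higher, against 3.99% of all probe sets, and in esg males 0, against 1.22% (limma, with 15 higher and 1 lower at an unadjusted p under 0.05). The count of 9 became 0 without either control male array or either esg male array, 1 without esg female replicate 1, 2 without esg female replicate 2 and 5 without control female replicate 2.

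In CG9238, 4 P450 genes were higher, against 1.53% of all probe sets, and 3 were lower, against 3.0%. The median change of the P450 genes was 0.02, against -0.04. The higher ones were Cyp6w1 (0.91 ± 0.08, adjusted p = 0.00736), Cyp6t1 (above), Cyp12e1 (0.68 ± 0.10, adjusted p = 0.0301) and Cyp311a1. Cyp311a1 was at 98.8 and 101.9 in CG9238 males, against under 50 on both control male arrays, at least 2.01-fold higher in that sex (adjusted p = 0.027). The lower ones were Cyp4d21, Cyp4d8 and Cyp6a18. In CG9238 females 6 genes were called, 1 higher and 5 lower, against 1.85% of all probe sets, and in males 9, 6 higher and 3 lower, against 2.84%. The count of 7 became 0 without control male replicate 2, 1 without the other control male array or CG9238 male replicate 2, 3 without CG9238 male replicate 1 or control female replicate 2, and 4 without control female replicate 1.

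In pyd, 1 P450 gene was higher, Cyp6d2, against 1.16% of all probe sets, and 2 were lower, Cyp4d8 and Cyp4d20 (-0.92 ± 0.12, adjusted p = 0.0279), against 0.935%. The median change was 0.20, against -0.05. In pyd males 13 genes were called, 11 higher and 2 lower, against 8.8% of all probe sets, and in pyd females 6, 3 higher and 3 lower, against 3.9%. The male calls included Cyp4g1, at 27502 and 21958 in pyd males against 13762 and 17232 in control males (0.67 ± 0.14, adjusted p = 0.0143), and Cyp6g1, at 12818 and 13787 against 8803 and 9610 (0.53 ± 0.10, adjusted p = 0.00891). The midgut genes summed to 84460 to 88780 in pyd males, against 56930 to 63480 in control males, and the fat body genes to 56920 to 58570, against 40420 to 44600. In pyd females the midgut genes summed to 69110 to 86220, overlapping the 61000 to 70490 of control females. The fat body genes summed to 33330 to 41410 there, against 25590 to 30030 in control females. The 6 tubule genes summed lower in pyd males, at 5158 to 6732 against 7261 to 7556 in control males, and overlapped in females. None of the 8 midgut genes and 2 of the 8 fat body genes were under 50 in these groups. No gene tested in these lists was called in pyd, and their part was not tested. The rise in pyd males was not particular to midgut and fat body. The 6 eye genes summed to 32570 to 35710, against 27070 to 29250 in control males, with 0 called. The cyclophilin Cyp1 was at 12432 and 11897, against 8372 and 9348. The 9 muscle genes summed lower, to 19880 to 22730 against 24530 to 26950, with 1 called lower over both sexes. The count of 3 became 1 on leaving out any control array or pyd male replicate 2, 2 without pyd male replicate 1 or pyd female replicate 1, and 7 without pyd female replicate 2.

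In crol, 3 P450 genes were higher, against 1.53% of all probe sets, namely Cyp6d4, Cyp6w1 (0.60 ± 0.08, adjusted p = 0.0323) and Cyp305a1 (0.47 ± 0.07, adjusted p = 0.0356), and 1 was lower, Cyp4d21, against 0.927%. The median change was 0.14, against -0.03. In crol males 6 genes were called, 4 higher and 2 lower, against 12.9% of all probe sets, and in females 4, 3 higher and 1 lower, against 2.68%. One of the male calls was Cyp310a1, known to act on Wnt signalling, which rose by 0.81 ± 0.18 (adjusted p = 0.0207). The 8 midgut genes summed to 48080 to 49970 in crol males, against 56930 to 63480 in control males, and to 50540 to 53310 in crol females, against 61000 to 70490 in control females, with 1 called higher and 3 lower. The 3 lower ones were trypsin genes, betaTry with a mean of 308.7 in crol males against 11980 in control males, epsilonTry with 37.8 against 2316 and lambdaTry with 31.3 against 2113. The means of the other 5 were higher in crol males than in control males, with thetaTry called, and the median change of the list was 0.12. Their part was not tested. The count of 4 became 0 without either control male array and 1 without any 1 of the 4 crol arrays.

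CG10990 had the fewest calls, 1 gene higher, against 0.847% of all probe sets, and 0 lower, against 0.567% (limma, 2 lower at an unadjusted p under 0.05, 0 by the methods' analysis of variance). The gene, Cyp4c3, was under 50 on all 4 CG10990 arrays and all 4 control arrays, so no fold is given. The median change was 0.15, against -0.01. In CG10990 males 2 genes were called, Cyp4e1 (0.57 ± 0.11, adjusted p = 0.0187) and Cyp6t1 (0.65 ± 0.14, adjusted p = 0.0414), against 2.89% of all probe sets, and in females 1, Cyp6d4 (1.10 ± 0.14, adjusted p = 0.00648), against 1.19%. The count of 1 became 0 without either control male array or any 1 of the CG10990 arrays, and 2 without control female replicate 1.

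Tested over all 8 lines within a sex, 3 P450 genes differed among lines in females (Cyp6a18, Cyp313a1 and Cyp6d4), against 1.17% of all probe sets, and 2 in males (Cyp6d2 and Cyp4d8), against 1.69% (limma F-test, adjusted p of at most 0.001). Leaving out any 1 array gave 0 to 2 genes in females and 1 in males. A line by sex difference was called for 1 P450 gene, Cyp313a1, against 0.591% of all probe sets (adjusted p = 4.3e-04). Cyp313a1 females had 348 and 372 in mub and 444 and 525 in BG00817, against 157 and 161 in the control, and 156 to 231 in the other 5 lines. Cyp313a1 males had 4366 and 3464 in mub and 4399 and 5149 in BG00817, against 3567 and 3590 in the control, and 3762 to 5569 in the other 5 lines. The rise in females was 1.18 ± 0.13 in mub (adjusted p = 0.00131) and 1.60 ± 0.13 in BG00817 (adjusted p = 0.00029), and no line passed the test in males. The call was lost on leaving out either control male array, mub male replicate 2, either mub female array, any of the 4 CG9238 arrays, either BG00817 male array or BG00817 female replicate 2.

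A probe set annotated to both Cyp12d1-d and Cyp12d1-p, a tandem pair of near-identical genes of the mitochondrial clan known for DDT response, showed the largest change against the control of any probe set with a Cyp name. It lies outside the 81 genes because 2 genes share it, and it was singled out after its values were seen. Its signals were 1841 and 1400 in crol males and 974 and 959 in crol females, against 29.1 and 5.26 in control males and 46.6 and 53.3 in control females. In the other 6 lines it was at 12.8 to 86.8 in males and 3.46 to 41.4 in females, so all 4 crol arrays lay above every other array. The signal in crol was at least 32.1-fold higher than in the control in males (limma adjusted p = 3.9e-04) and at least 18.7-fold higher in females (adjusted p = 0.0376). The probe set annotated to Cyp12d1-d alone was at 50.9 and 48.9 in crol males and 75.2 and 43.4 in crol females and under 50 on the other 28 arrays.

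Between the sexes, 64 of the 72 P450 genes differed, against 84.2% of all probe sets (limma, males minus females averaged over the lines, adjusted p of at most 0.001). Of these 56 were higher in males, against 46.2% of all probe sets, and 8 were higher in females, against 37.9%, a split that became 45 to 18 under quantile normalization and 60 to 7 with arrays centred on their medians. The median difference was 1.15 for the P450 genes and 0.20 for all probe sets (log2), and the value for all probe sets moved to -0.12 under quantile normalization and 0.42 under median centring. Against those shifts the median of the P450 genes was 0.97 and 1.37. Among the 72 genes, higher in males were 7 of 7 of the mitochondrial clan, 28 of 35 in CYP3, 20 of 27 in CYP4 and 1 of 3 in CYP2. P450 genes named outside the Cyp scheme are not in these counts. The whole-body difference includes the gonads. The 13 ovary and yolk genes tested were all higher in females and the 14 male reproductive genes all higher in males, with summed signals of 504 to 3080 in males against 68320 to 127700 in females for the ovary list, and 68530 to 93250 in males against 132 to 256 in females for the male list. Their part in the P450 differences was not tested.

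The largest excess in males was in Cyp4d21, also called sex-specific enzyme 1, which is expressed in male head fat body and acts in courtship. It was at 1000 to 3421 in males (median 1801), against 3.20 to 82.5 in females, with 12 of 16 female arrays under 50. The male excess was at least 34.6-fold (adjusted p = 3.8e-17). Cyp312a1 was at 1451 to 2597 in males and 21.3 to 87.0 in females, an excess of at least 34.3-fold (adjusted p = 3.3e-20). Cyp313a1 was at 3464 to 5569 in males and 156 to 525 in females, a difference of 4.30 ± 0.05 (adjusted p = 1.1e-21). The male and female arrays did not overlap for any of these 3 genes. Cyp28c1 and Cyp309a2 came next by fitted difference, but both were under 50 on all 16 female arrays and reached only 136 and 123 in males, so the excess was at least 1.84-fold (adjusted p = 7.2e-12) and at least 1.82-fold (adjusted p = 1.1e-08). Its neighbour Cyp309a1 differed by 2.08 ± 0.10 (adjusted p = 3.4e-13).

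Among genes with known roles in resistance, Cyp6g1 was higher in males by 1.87 ± 0.04, Cyp6a8 by 1.87 ± 0.05, Cyp6a2 by 1.80 ± 0.08, Cyp6w1 by 1.28 ± 0.05 and Cyp12a4 by 1.01 ± 0.04, with limma adjusted p of at most 0.001 for each. Cyp28d1, which acts against dietary nicotine, was higher by 1.16 ± 0.05 and Cyp6a20, known for its effect on male aggression, by 1.26 ± 0.04. Cyp9b2 and Cyp6a21 were also higher in males, by 1.08 ± 0.04 and 1.35 ± 0.05. Cyp310a1 was under 50 on all 16 female arrays, and its excess in males was at least 2.11-fold. Cyp4g1 did not pass the test (0.14 ± 0.05, adjusted p = 0.0103).

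Cyp6a19 ran the other way and by the widest margin. It was at 39.5 to 91.5 in males (median 66.4), against 3522 to 5717 in females (median 4871), at least 74.0-fold higher in females (adjusted p = 4.2e-21). It was followed by Cyp6v1 (-1.58 ± 0.06, adjusted p = 3e-15), Cyp6u1 (-1.24 ± 0.05, adjusted p = 1e-14), Cyp6a22 (-1.07 ± 0.04, adjusted p = 1.5e-14) and Cyp4d1 (-0.92 ± 0.06, adjusted p = 6.8e-11). Cyp6v1 was at 166 to 296 in males against 525 to 1266 in females, and Cyp6u1 at 295 to 459 in males against 718 to 1106 in females, with no overlap. The probe set annotated to both shn and Cyp6v1 ran the other way, with group means of 665 to 1300 in males and 282 to 534 in females. Which of its genes it measured was not tested. Cyp18a1, which inactivates ecdysteroids, was also higher in females (-0.48 ± 0.06, adjusted p = 1.8e-07). The Cyp4d1 arrays of the sexes overlapped, at 522 to 848 in males and 487 to 2391 in females, because pyd females lay below all other female arrays.

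**Figure D3:**
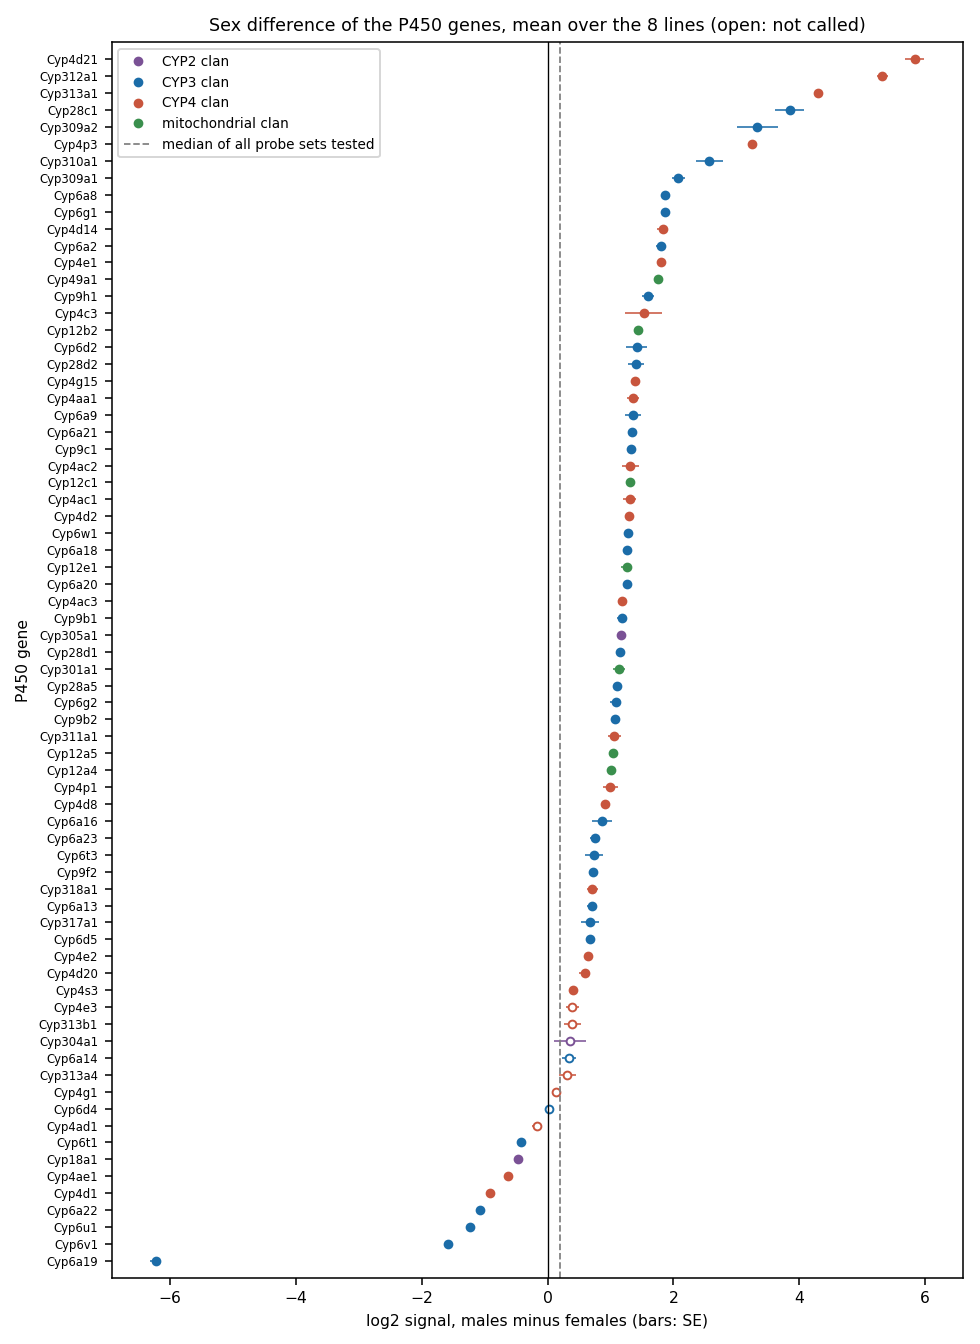
Male minus female difference in log2 signal, averaged over the 8 lines, of the 72 P450 genes tested, with SE bars, coloured by clan; open points were not called and the dashed line is the median of all probe sets tested. Of the 72 genes, 56 lie on the male side and were called, and Cyp6a19, at -6.23, stands apart on the female side.

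Of 20 pairs of neighbouring P450 genes with both tested, 16 had both genes higher in males, 3 were called in opposite directions and 1 had a gene not called. Of all 72 P450 genes tested, 56 (77.8%) were higher in males, and some, such as Cyp6g2, stand in more than 1 pair. Whether neighbours share a direction more often than that share gives was not tested. Of the genes in the 16 pairs, Cyp6g2, Cyp6t3, Cyp317a1, Cyp311a1 and Cyp318a1 turned higher in females under quantile normalization. The opposite pairs were Cyp6a23 with Cyp6a19, Cyp6a19 with Cyp6a9, and Cyp4d2 with Cyp4ae1. In the annotation Cyp6a22, Cyp6a17, Cyp6a23, Cyp6a19, Cyp6a9, Cyp6a20, Cyp6a21, Cyp6a8 and Cyp317a1 follow each other without another gene between them. Cyp6a22 and Cyp6a19 were higher in females, whereas Cyp6a23 (0.75 ± 0.08), Cyp6a9 (1.35 ± 0.13), Cyp6a20, Cyp6a21 and Cyp6a8 were higher in males, and Cyp317a1 was higher in males by at least 1.52-fold as deposited but lower under quantile normalization. Cyp6a17 was under 50 throughout. Cyp4p3 and its neighbour Cyp4p1 were both higher in males, by 3.26 ± 0.07 and 1.00 ± 0.12. Cross-hybridisation between neighbours of similar sequence was not tested.

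The line changes of Cyp4d21 were read against this sex difference. Male signals were 1383 and 1000 in pyd, 1504 and 1437 in CG9238 and 1243 to 2455 in the other 5 lines, against 3421 and 2715 in the control. All 14 mutant male arrays were below both control male arrays. In males the change was -1.37 ± 0.20 in pyd (adjusted p = 0.00276), -1.05 ± 0.20 in CG9238 (adjusted p = 0.0201), -1.07 ± 0.20 in BG00817 (adjusted p = 0.0126) and -0.76 ± 0.20 in crol (adjusted p = 0.0359). The other 3 lines did not pass the test in males. These comparisons share 2 control arrays. In females 12 of 16 arrays were under 50. CG9238 females, at 10.0 and 3.20 against 62.9 and 82.5 in control females, were at least 1.44-fold lower (adjusted p = 0.0137). Over both sexes Cyp4d21 was lower by at least 1.73-fold in CG9238 (adjusted p = 0.0331), 1.74-fold in BG00817 (adjusted p = 0.0244) and 1.56-fold in crol (adjusted p = 0.0252).

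**Figure D4:**
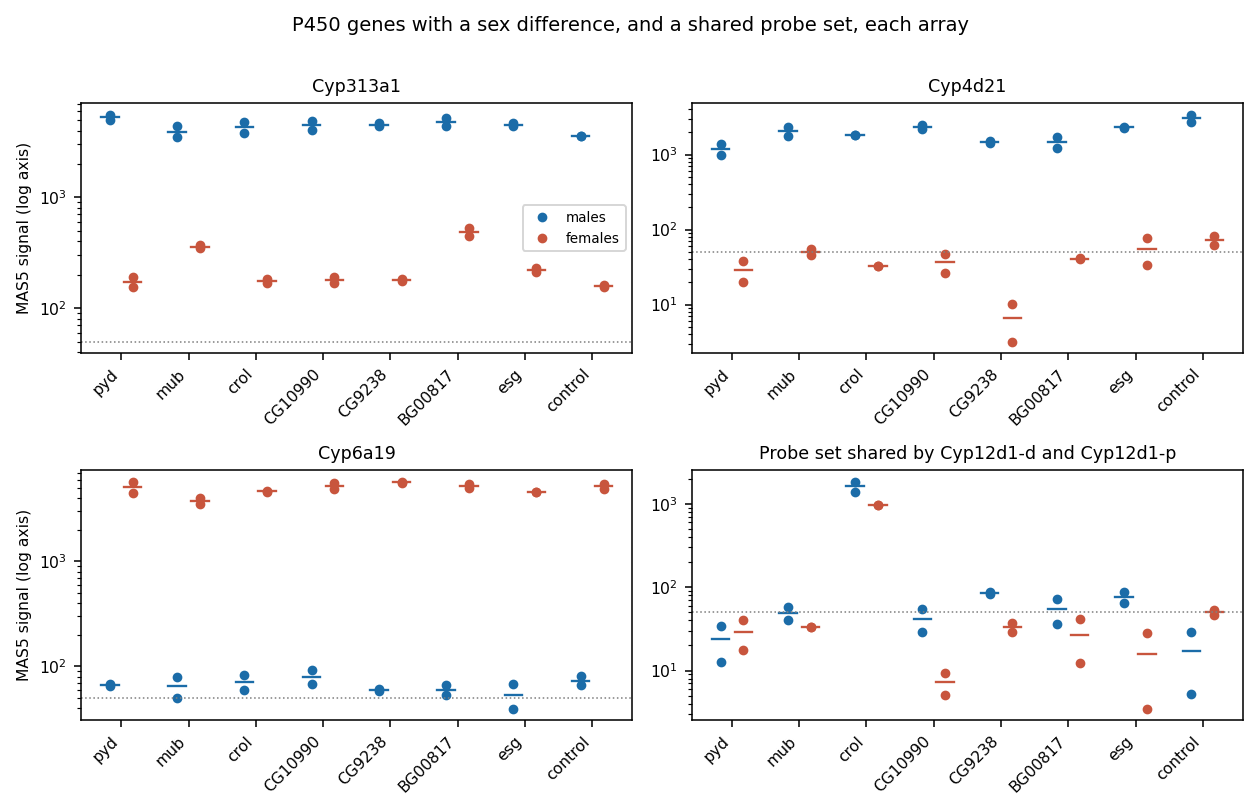
Signal on a log axis of Cyp313a1, Cyp4d21, Cyp6a19 and the probe set shared by Cyp12d1-d and Cyp12d1-p on each array (points) by line, males left of females, with the mean of the 2 arrays as a bar and a dotted line at a signal of 50. Cyp313a1 rises in mub and BG00817 females, Cyp4d21 is below the control in males of every mutant line, and the shared probe set reaches 959 to 1841 in crol and at most 86.8 elsewhere.

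P450 enzymes need electrons from partner proteins and heme, and work beside conjugating enzymes. Of 9 electron-donor and heme synthesis genes tested, 2 (22.2%) differed among the lines, against 10.1% of all probe sets (limma F-test), Fdx1, a mitochondrial ferredoxin (adjusted p = 1.5e-05), and Cyt-b5-r, a cytochrome b5-related gene (adjusted p = 5.5e-05). The P450 reductase gene Cpr was not among the 9. Cyt-b5-r was higher in mub by 0.35 ± 0.07 (limma adjusted p = 0.0399). Of 34 glutathione transferases 2 (5.88%) differed, GstT3 and GstD5, a smaller share than over all probe sets. GstD5 was higher in mub (0.66 ± 0.09, adjusted p = 0.0183) and lower in BG00817 (-0.75 ± 0.06, adjusted p = 0.00456). GstT3 was higher in BG00817 (0.33 ± 0.07, adjusted p = 0.0447) and lower in CG9238 (-0.46 ± 0.07, adjusted p = 0.0285).

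Of 27 UDP-glycosyltransferases, which attach sugars to the oxidised products, 5 (18.5%) differed among the lines, against 10.1% of all probe sets, Ugt37A2, Ugt303B3, Ugt37D1, Ugt304A1 and Ugt35A1. In BG00817 Ugt37A2 rose by 2.44 ± 0.18 (adjusted p = 0.00334), Ugt304A1 by 0.95 ± 0.18 (adjusted p = 0.0348) and Ugt37D1 by 0.48 ± 0.09 (adjusted p = 0.0349). Ugt35A1 rose by 0.46 ± 0.08 in mub (adjusted p = 0.031), and Ugt303B3 was lower in CG9238 (-0.51 ± 0.06, adjusted p = 0.0192). Of 11 carboxylesterases 4 (36.4%) differed, against the same 10.1%, alpha-Est8, Est-Q, alpha-Est3 and alpha-Est7. Est-Q rose in mub (0.57 ± 0.07, adjusted p = 0.0166), BG00817 (0.59 ± 0.07, adjusted p = 0.0116) and esg (0.44 ± 0.08, adjusted p = 0.0405). alpha-Est8 rose in esg (0.42 ± 0.06, adjusted p = 0.0327) and mub (0.35 ± 0.07, adjusted p = 0.0334) and was lower in BG00817 (-0.56 ± 0.08, adjusted p = 0.0141). alpha-Est3 rose in mub (0.34 ± 0.08, adjusted p = 0.0465) and BG00817 (0.34 ± 0.07, adjusted p = 0.044).

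Of the ecdysteroid synthesis genes, which include P450 genes named outside the Cyp scheme, 4 of the 7 on the array were tested and 0 differed among the lines (limma F-test, 1 at an unadjusted p under 0.05). Of the 8 regulators of P450 genes tested, 0 differed (limma F-test, 5 at an unadjusted p under 0.05). Against the control alone, at the threshold of 0.05, 1 regulator was called, cnc, which in flies activates detoxification genes. It was lower in BG00817 (-0.85 ± 0.15, adjusted p = 0.0308) and CG9238 (-0.75 ± 0.10, adjusted p = 0.0236) and higher in mub (0.39 ± 0.07, adjusted p = 0.0333). The mean signal of cnc was 2093 in BG00817 males, 2242 in CG9238 males and 5105 in mub males, against 3940 in control males. It was 1844 in BG00817 females, 1933 in CG9238 females and 4095 in mub females, against 3097 in control females. The ecdysteroid genes nvd, spo and sro were higher in females. The group means of spo were 3.08 to 13.5 in males, all under 50, against 51.1 to 96.1 in females.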

How the data were processed

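The deposited intensity values, 1 MAS5 signal per probe set and array, were made by the authors (version not given in the sources used here) on the Affymetrix Drosophila Genome 2.0 array. Per array, the average signal after dropping 2% at either end was about 500, whereas the methods name a median as the target. Of 18952 probe sets, 183 array controls were left out. The lower replicate signal had to reach 50 in at least 1 of the 16 groups, which left 12518 probe sets. Of these 11072 have 1 gene symbol, 342 several and 1104 none. Names and gene order come from the platform annotation and a gene table of assembly Release 6 plus ISO1 MT. The array's build is not named there, so no coordinates are given.

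log2 signal was fitted with limma 3.58.1 in R 4.3.3, with Benjamini-Hochberg adjustment over all probe sets. The tests among lines, between sexes and of line by sex used 1 mean per line and sex over 32 arrays, those within a sex its 16 arrays, at an adjusted p of at most 0.001. Each line was set against the control on 8 arrays, or within a sex as a contrast of the 16-array fit, at 0.05. The separate models and the analysis of variance run as an alternative follow the methods. The methods set 0.001 for the single sexes and 0.0001 for the line term, so the counts at 0.0001 are also given, an alternative added after seeing the data. Where an array of the dimmer group was under 50, a bound is given with such signals raised to 50. The number of arrays limits the precision. The code was tested on simulated data.

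Genes are named by rule: those past the line or line by sex test, up to 4 higher and 4 lower for each line, the 5 with the largest difference in each sex, the 5 highest and 3 lowest in signal, a list with known roles, and members of other lists past the line test. The genes and lists were chosen with earlier results of these data known.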

Additional observations from a re-analysis of the deposited data

Results flagged for a closer look

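Cyp313a1 changed differently in the sexes across the lines by the test of line by sex (limma, adjusted p = 4.3e-04), with rises in mub and BG00817 females and none called in males. The probe set annotated to both shn and Cyp6v1, outside the comparisons of the 81 genes because 2 genes share it, differed among the 8 lines (limma, adjusted p = 5.9e-07). It was higher in esg (0.66 ± 0.06 on the log2 scale, adjusted p = 0.0119) and mub (0.54 ± 0.07, adjusted p = 0.0185) than in the control. Which of its 2 genes it measured was not tested. The probe set shared by Cyp12d1-d and Cyp12d1-p also differed among the lines (adjusted p = 7.1e-06), with all 4 crol arrays above every other array.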

How the results depend on the processing

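The count of 21 P450 genes that differed among the 8 lines was 14 to 26 under the other normalizations, filters and models, 12 at a threshold of 0.0001, and was 15 to 25 with 1 array left out. The count of 64 for the sexes was 58 to 67 over the alternatives and 64 to 65 with 1 array left out, with 56 to 57 higher in males and 8 to 9 higher in females. Counts for single lines were less steady. With 1 array left out they were 1 to 7 in pyd, 1 to 18 in mub, 0 to 4 in crol, 0 to 2 in CG10990, 0 to 8 in CG9238, 5 to 14 in BG00817 and 0 to 9 in esg, 0 to 2 for line by sex, 0 to 2 among lines in females and 1 in males. No array left out reversed a named change.

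Without the filter on low signals the counts fell to 1 in pyd, 1 in mub, 0 in crol, 0 in CG10990, 3 in CG9238, 6 in BG00817 and 0 in esg, and to 0 for line by sex and 0 among lines in either sex. The filter at 100 gave 2 in CG10990. With an offset of 50 added, the counts were 6 in pyd, 4 in CG10990, 11 in crol, 12 in CG9238 and 16 in esg, 3 for line by sex and 10 among lines in females. An intensity trend in limma gave 6 in pyd, 3 in CG10990, 7 in crol, 13 in CG9238 and 15 in esg, 5 for line by sex, 8 among lines in females and 5 among them in males. All 32 arrays in 1 fit gave 23 in pyd, 8 in crol and 9 in CG10990. The methods' analysis of variance on log2 signal gave 1 in pyd, 2 in crol, 0 in CG10990, 4 in CG9238, 9 in BG00817 and 4 in esg, 0 for line by sex, 1 in females and 0 in males, and on untransformed signal 0 in CG10990 and 1 in males. Line by sex gave 26 with the threshold at 0.05 and 0 at 0.0001, and the sexes 63 at 0.0001, alternatives chosen after seeing the data.

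Replicate numbers were not taken to pair the samples. Of 120 pairs of groups, 7 had a correlation of same-numbered deviations over 0.1 (range -0.14 to 0.24), and all 7 were between male groups. The highest was between crol and CG10990 males. Their log2 ratios of 3′ to 5′ probe sets were 0.748 and 0.791 in replicate 1, and 1.674 and 1.639 in replicate 2. Whether male arrays of the same number share a source was not tested. With the replicate block the counts were 1 in pyd, 6 in mub, 1 in crol, 0 in CG10990, 5 in CG9238, 8 in BG00817, 1 in esg and 1 among lines in males, and 21 among the 8 lines, 64 between the sexes, 2 among lines in females and 1 for line by sex.

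Quantile normalization gave 2 in CG10990 and 18 genes higher in females, since the male minus female difference turned negative for Cyp6a16 (-1.21), Cyp4c3 (-1.10), Cyp311a1 (-0.86), Cyp318a1 (-0.73), Cyp6t3 (-0.65), Cyp317a1 (-0.58), Cyp301a1 (-0.33), Cyp6d2 (-0.24), Cyp6g2 (-0.15) and Cyp4s3 (-0.077). Of the 60 called line changes 5 passed the test under every alternative, and of the 64 sex calls 51. The causes were not tested. Signals near 50, and 2 arrays a group, limit what can be read.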
